A study of Homo sapiens with 18 samples.

Results

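HT29 and WiDr are established human colorectal adenocarcinoma lines, and WiDr, by the usual account, was grown from HT29, so that a comparison of the untreated lines asks how far cells of 1 common origin differ at baseline. The members were the 3 arrays labelled HT29 vehicle and the 3 labelled WiDr vehicle, 6 of the 18 arrays of the series, taken by their labels alone. The 3 arrays of WiDr transduced with a control shRNA were set beside them. They mark the genes at which the WiDr vehicle arrays stand apart from both other groups. The remaining 9 arrays hold HT29 with AZ628, a RAF kinase inhibitor, WiDr with AZ628, and WiDr with an shRNA against IKKα, and they entered here as part of the common fit and where named. The labels name the vehicle only as vehicle and give no dose, duration or culture density. Nor do they state whether replicate arrays were hybridised from separate cultures, so p-values measure the spread between arrays, which may be technical, and each line stands here as the stock 1 study kept.

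A cancer cell line kept in separate laboratories drifts: clones with different chromosome sets outgrow each other, genes are silenced or reactivated, and the daughter cultures come to express different programmes. HT29 is known as a colon line that keeps both goblet-like and enterocyte-like features, which rest on mucins, trefoil factors and brush border enzymes. Colon epithelium also answers growth factor signals through the MAPK cascade and danger signals through NF-κB, whose targets include chemokines that call neutrophils.

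Signals are RMA values per probe set on a log2 scale, in which a difference of 1 is 2-fold, and each gene was read from its brightest probe set. Both lines carried the colon epithelium markers. The mean over the 14 marker genes was at most 10.04 in the HT29 vehicle arrays, 10.08 in the WiDr control shRNA arrays and 9.76 in the WiDr vehicle arrays, with 10, 9 and 9 of the markers over 8. Of the 10 fibroblast and 8 endothelial markers none was over 8 in any of these groups, and of 8 blood cell markers 1 was, lysozyme (LYZ), at 13.81, 13.97 and 13.90 in HT29 vehicle and 13.95, 13.64 and 13.74 in WiDr vehicle arrays. Arrays of 1 group correlated at 0.997 to 0.999 over all genes, HT29 vehicle with WiDr vehicle arrays at 0.986 to 0.988, HT29 vehicle with control shRNA arrays at 0.985 to 0.986, and control shRNA with WiDr vehicle arrays at 0.994 to 0.996. The actin control probe sets differed by 1.29 to 1.75 between the 3′ and the 5′ end in HT29 vehicle, 1.47 to 1.59 in control shRNA and 1.36 to 2.01 in WiDr vehicle arrays. The 5′ control probe set for 18S ribosomal RNA read 11.57 to 11.99 in HT29 vehicle, 11.93 to 13.64 in control shRNA and 11.05 to 11.27 in WiDr vehicle arrays, and its part in the results was not tested.

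HT29 and WiDr differed at about 1 gene in 3, mostly by little. Of 18132 genes, 5837 (32.2%) passed an adjusted p of 0.05 between HT29 vehicle and WiDr vehicle in limma, with 3071 (16.9%) higher and 2766 (15.3%) lower in HT29. Of those called, 91.6% differed by less than 2-fold. At least 2-fold higher in HT29 were 264 genes (1.46%) and at least 2-fold lower 224 (1.24%), and the 4-fold line was passed by 57 and 46 of them. The median over all genes was -0.01. The 3 HT29 vehicle arrays lay wholly on 1 side of the 3 WiDr vehicle arrays at 41.2% of genes, above at 21.2% and below at 19.9%.

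Most of the 2-fold differences were also seen against the control shRNA arrays. Of the 5837 genes, 4451 (76.3%) passed in 1 direction against both WiDr groups with the control shRNA mean nearer to that of WiDr vehicle. At 763 (13.1%) the control shRNA mean was nearer to that of HT29 and control shRNA itself passed against WiDr vehicle in the same direction, so that WiDr vehicle stood apart, and 623 fell between these classes. Among the 488 genes at 2-fold the first class held 452 (92.6%) and the second 36. WiDr control shRNA differed from WiDr vehicle at 4023 genes (22.2%), with 66 at least 2-fold higher (0.364%) and 5 at least 2-fold lower (0.0276%). HT29 vehicle differed from WiDr control shRNA at 7915 genes (43.7%), with 216 at least 2-fold higher (1.19%) and 376 at least 2-fold lower (2.07%). These comparisons share arrays and are given side by side only.

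The largest differences towards HT29 were at SPP1 and REG4, both of which encode secreted proteins. SPP1, which encodes osteopontin, a secreted phosphoprotein that binds integrins, read 11.33, 11.38 and 11.33 in HT29 vehicle arrays, against 5.14, 5.10 and 4.76 in WiDr control shRNA and 5.15, 5.12 and 4.81 in WiDr vehicle arrays. HT29 was high in every array and both WiDr groups were dim, a difference of 6.32 ± 0.12 (SE, n = 3 each, adjusted p = 7.02e-16) or 79.9-fold on the RMA scale, on which folds against dim signals are less certain. REG4, a secreted lectin of goblet-like and neuroendocrine cells of the gut, read 13.24, 13.29 and 13.21 in HT29 vehicle, 9.67, 9.72 and 9.61 in control shRNA and 8.59, 8.47 and 8.68 in WiDr vehicle arrays. The groups did not overlap, and HT29 exceeded WiDr vehicle by 4.66 ± 0.07 (SE, adjusted p = 2.04e-17). CTSE, the gastric aspartic protease cathepsin E, read 10.94, 11.30 and 11.15 in HT29 vehicle against 7.31, 7.24 and 7.39 in control shRNA and 7.22, 6.88 and 7.11 in WiDr vehicle arrays, with no overlap.

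FABP1, BAMBI and CEACAM6 were also among the 14 largest. FABP1, the liver-type fatty acid binding protein of enterocytes, read 8.74, 8.66 and 8.77 in HT29 vehicle, 5.96, 6.04 and 5.95 in control shRNA and 4.80, 4.67 and 4.66 in WiDr vehicle arrays. The 3 groups formed 3 separate levels. BAMBI, a decoy receptor that dampens TGF-β and BMP signals, read 10.59, 10.74 and 10.73 in HT29 vehicle against 6.22, 6.39 and 6.39 in control shRNA and 6.85, 6.64 and 6.83 in WiDr vehicle arrays (difference from WiDr vehicle 3.91 ± 0.11, SE). CEACAM6, an adhesion molecule of the carcinoembryonic antigen family, read 11.09, 11.27 and 11.03 in HT29 vehicle, 8.58, 8.79 and 8.77 in control shRNA and 7.47, 7.30 and 7.48 in WiDr vehicle arrays, again 3 separate levels. Its relative CEACAM5 was 2.37 higher, and as members of 1 family their probe sets can cross-hybridise.

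Of the other leading genes, AMOT, an angiomotin that binds the Hippo pathway effector YAP, was 4.19 higher in HT29, and DACH1, a nuclear cofactor of the retinal determination network, 4.07 higher. The axonal adhesion molecule CNTNAP2 was 3.71 higher, the endoplasmic reticulum autophagy receptor RETREG1 3.68, the cap-binding protein EIF4E3 3.47, the transcription factor SOX8 3.37 and the sorting nexin SNX10 3.36 higher. The pore-forming tight junction protein CLDN2 was 3.24 higher. In each of these the control shRNA arrays lay near those of WiDr vehicle, as the plot of the largest differences shows. The difference rests on the brightest probe set, and the others gave as little as 0.17 for AMOT and -0.05 for CNTNAP2.

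**Figure D1:**
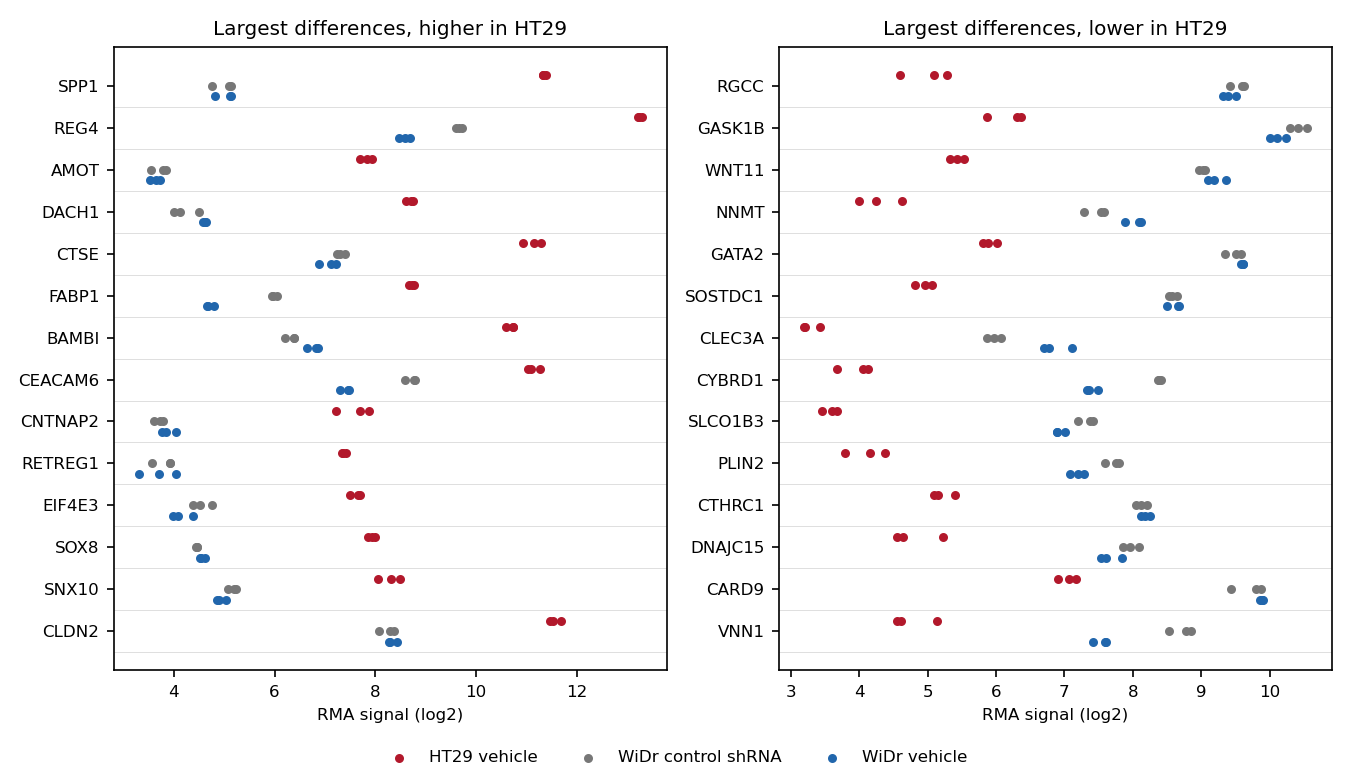
RMA signal (log2, horizontal) of the 14 genes with the largest differences in each direction that met the naming rule, with 1 point per array for HT29 vehicle (red, top of each strip), WiDr control shRNA (grey) and WiDr vehicle (blue). HT29 points are apart from both WiDr groups in every strip, SPP1 lies near 11.3 in HT29 and near 5 in WiDr, and FABP1 and CEACAM6 show 3 levels.

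The largest differences towards WiDr included RGCC, WNT11 and SOSTDC1. RGCC, a cell cycle regulator that responds to complement, read 5.29, 4.60 and 5.09 in HT29 vehicle arrays, against 9.60, 9.43 and 9.63 in control shRNA and 9.51, 9.39 and 9.32 in WiDr vehicle arrays (difference -4.41 ± 0.14, SE, n = 3 each, adjusted p = 2.96e-13). It was high in all 6 WiDr arrays and low in all 3 of HT29. WNT11, a Wnt ligand of non-canonical signalling, read 5.44, 5.54 and 5.33 in HT29 vehicle against 9.06, 9.03 and 8.97 in control shRNA and 9.37, 9.10 and 9.19 in WiDr vehicle arrays. SOSTDC1, a secreted antagonist of BMP and Wnt ligands, read 4.82, 4.96 and 5.07 in HT29 vehicle against 8.52, 8.65 and 8.57 in control shRNA and 8.68, 8.49 and 8.66 in WiDr vehicle arrays. Neither gene overlapped between the lines.

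CYBRD1, PLIN2 and SLCO1B3 were lower in HT29 as well. CYBRD1, the ferric reductase of the duodenal brush border, read 3.68, 4.05 and 4.13 in HT29 vehicle, 8.37, 8.39 and 8.42 in control shRNA and 7.50, 7.33 and 7.36 in WiDr vehicle arrays. PLIN2, which coats lipid droplets, was 3.07 lower, SLCO1B3, an organic anion transporter typical of liver, 3.35 lower, and VNN1, a pantetheinase, 2.77 lower. NNMT, which methylates nicotinamide, was 3.75 lower, the kinase-like Golgi protein GASK1B 3.94, the transcription factor GATA2 3.69, the lectin CLEC3A 3.58, the matrix protein CTHRC1 2.97, the mitochondrial co-chaperone DNAJC15 2.85 and the adaptor CARD9 2.83 lower. CARD9 links pattern receptors to NF-κB. Among several probe sets of 1 gene the differences spanned -3.69 to 0.04 for GATA2, -3.66 to -0.03 for SOSTDC1, -3.67 to 0.18 for CTHRC1 and -2.77 to 0.09 for VNN1, which gave -0.06 and did not pass once multi-transcript probe sets were dropped.

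Some genes were dim in 1 line and bright in the other. With low set under 5 and high over 8 in every array, DACH1 and FABP1 were low in WiDr vehicle and high in HT29 vehicle (0.011% of genes), and no gene was the other way. With low set under 6 and high over 7, 33 genes were low in WiDr and 22 low in HT29, 55 in all (0.303%). At 44 of these the control shRNA arrays lay on the WiDr side, and at 45 the 6 HT29 arrays of the series did not overlap the 12 WiDr arrays (7.57% of all genes), a description, since the vehicle arrays that chose these genes are among the 18. Those low in WiDr, with examples chosen after their values were seen, included SPP1, AMOT, the gastric claudin CLDN18 (7.64 in HT29 vehicle, 4.79 in WiDr vehicle), the mitochondrial coactivator PPARGC1A (8.35 and 5.71), the transporter ABCC2 (7.45 and 4.83) and the transcription factor SOX6 (7.22 and 4.52). Those low in HT29 included KYNU, an enzyme of tryptophan breakdown (5.09 in HT29 vehicle, 7.41 in WiDr vehicle), LOXL4, a matrix crosslinking oxidase (5.18 and 7.43), SAMD4A, an RNA-binding repressor (5.01 and 7.27), and CHFR, a mitotic checkpoint ubiquitin ligase (5.43 and 7.18). Over the probe sets of 1 gene the difference spanned -0.05 to 2.69 for SOX6, 0.13 to 2.64 for PPARGC1A and 0.82 to 2.62 for ABCC2. It spanned -2.26 to -0.13 for SAMD4A, -2.32 to -0.32 for KYNU and -2.25 to -0.52 for LOXL4, while CLDN18 gave 2.11 to 4.62.

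Silencing of a gene in a cell line often goes with methylation of a promoter rich in the dinucleotide CG, and CHFR in colorectal and DNAJC15 in ovarian cancer are known examples. DNA methylation was not analysed here. The 250 bases before the start of the 2 strictest genes and of these 2 are shown to give their CG content, from RefSeq on GRCh38.p14, 5′ to 3′ on the strand of the gene, with each CG in capitals. DACH1 is at chr13:71867205-71867454 on the minus strand with 12 CG, FABP1 at chr2:88128063-88128312 on the minus strand with 4, CHFR at chr12:132887606-132887855 on the minus strand with 28, and DNAJC15 at chr13:43023336-43023585 on the plus strand with 19.
DACH1: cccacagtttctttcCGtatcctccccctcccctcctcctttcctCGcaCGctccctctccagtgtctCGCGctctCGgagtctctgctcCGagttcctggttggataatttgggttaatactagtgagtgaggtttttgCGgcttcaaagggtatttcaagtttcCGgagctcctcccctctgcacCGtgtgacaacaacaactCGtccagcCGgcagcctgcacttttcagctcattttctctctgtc
FABP1: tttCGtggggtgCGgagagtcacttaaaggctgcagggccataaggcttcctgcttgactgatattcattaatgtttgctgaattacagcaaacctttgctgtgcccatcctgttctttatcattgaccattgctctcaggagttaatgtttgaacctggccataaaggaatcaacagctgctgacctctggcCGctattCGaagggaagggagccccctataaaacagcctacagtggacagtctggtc
CHFR: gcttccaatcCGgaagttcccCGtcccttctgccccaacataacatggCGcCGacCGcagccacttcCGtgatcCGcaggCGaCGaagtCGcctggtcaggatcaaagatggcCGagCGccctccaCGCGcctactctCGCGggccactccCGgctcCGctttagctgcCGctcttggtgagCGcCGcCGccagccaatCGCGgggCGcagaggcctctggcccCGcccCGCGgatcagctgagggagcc
DNAJC15: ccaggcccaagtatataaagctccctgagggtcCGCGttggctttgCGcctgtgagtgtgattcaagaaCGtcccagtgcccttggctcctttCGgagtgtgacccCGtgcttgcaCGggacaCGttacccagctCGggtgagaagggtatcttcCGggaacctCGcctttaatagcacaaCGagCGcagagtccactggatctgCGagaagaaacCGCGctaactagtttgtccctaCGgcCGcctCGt
Over 300 bases around the start (250 before to 50 after), counted as CG, which is the same on both strands, 6 of the 14 matched genes low in HT29 held 15 or more CG (42.9%), and 17 of the 28 matched genes low in WiDr did (60.7%). The share was 67.2% of the 14425 genes with an entry and 85.4% of those with a mean signal over 7 in either vehicle group. CHFR read 5.39, 5.58 and 5.33 in HT29 vehicle, 7.0, 7.27 and 6.98 in control shRNA and 7.07, 7.23 and 7.24 in WiDr vehicle arrays, and 1 of its 2 probe sets gave a difference of 0.07.

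**Figure D2:**
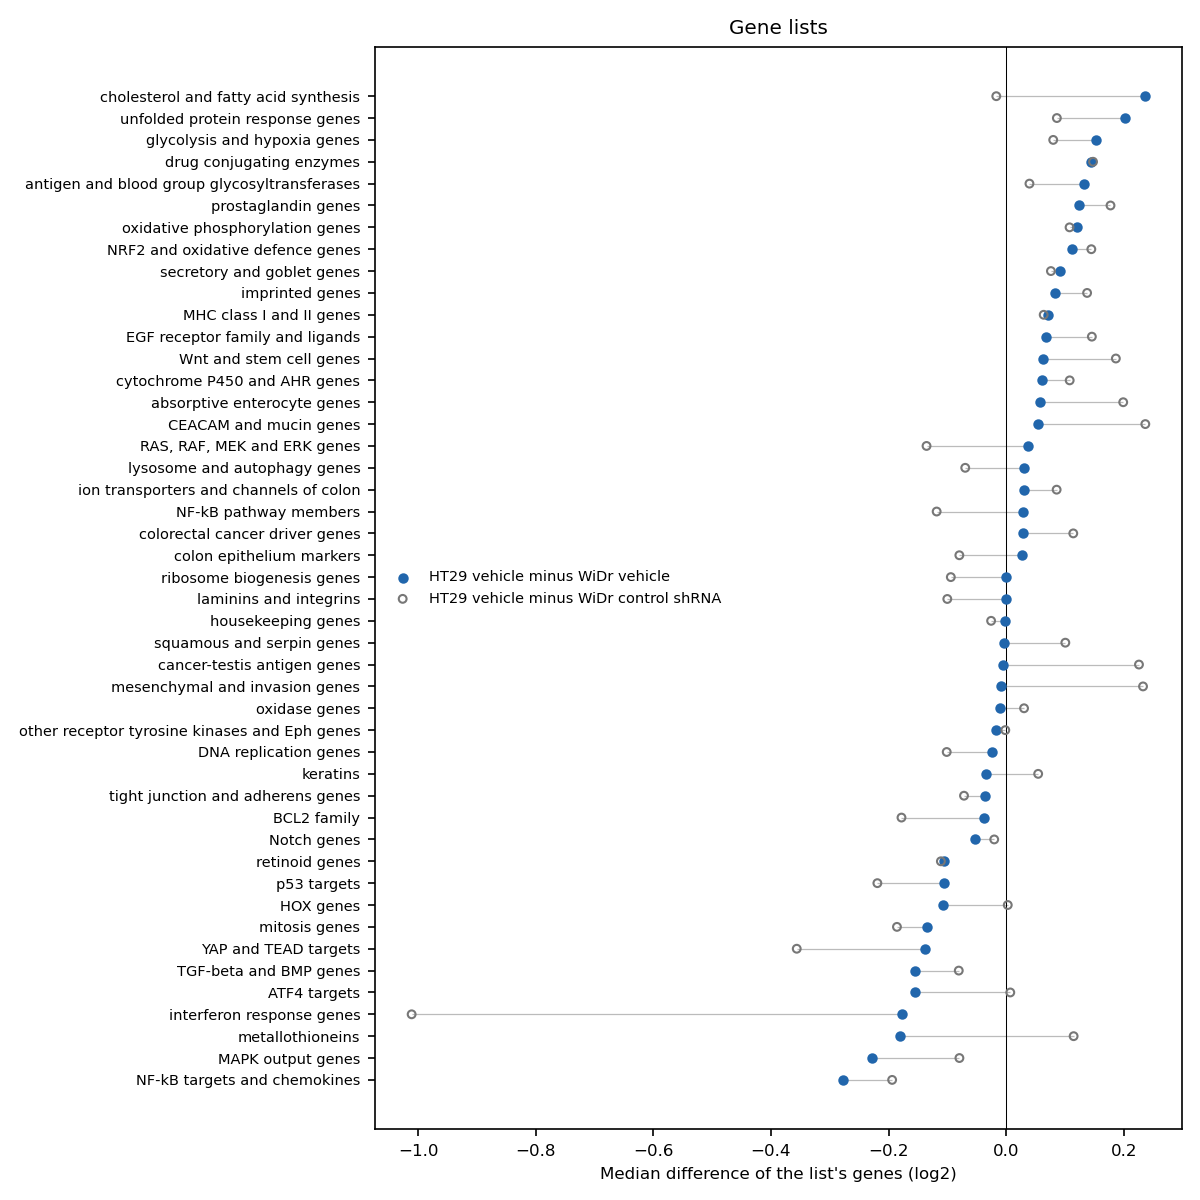
Median difference (log2, horizontal) over the measured genes of each gene list for HT29 vehicle minus WiDr vehicle (filled blue) and HT29 vehicle minus WiDr control shRNA (open grey). Most medians lie within 0.2 of 0, the NF-κB target list has the lowest value against WiDr vehicle, and the interferon list is -0.18 against WiDr vehicle and -1.01 against control shRNA.

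The gene lists below came from textbook knowledge, and the median over all genes, for reading them, was -0.01 against WiDr vehicle and 0.08 against control shRNA. Against WiDr vehicle 16.9% of all genes were higher in HT29 and 15.3% lower, and a list near these shares does not stand out from all genes. NF-κB target and chemokine genes were more often lower in HT29, 12 of 26 measured lower and 1 higher, with a list median of -0.28. CXCL8, the neutrophil chemokine interleukin 8, read 6.70, 6.98 and 7.34 in HT29 vehicle, 8.12, 8.24 and 8.48 in control shRNA and 9.51, 9.69 and 9.69 in WiDr vehicle arrays. The 3 groups lay at separate levels. CXCL6 read 2.67, 2.96 and 2.65 in HT29 vehicle against 5.27, 5.63 and 5.59 in control shRNA and 4.70, 4.45 and 4.63 in WiDr vehicle arrays. CXCL1 was 1.95 lower in HT29, PTGS2, the inducible cyclooxygenase, 1.61, LCN2, an iron-binding lipocalin, 1.08 and TNFAIP2 1.27 lower, TNFAIP2 only by a probe set that binds several transcripts (0.04 without such probe sets). Against control shRNA 11 of the 26 were lower and 4 higher, where 19.2% of all genes were lower and 24.4% higher.

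The NF-κB pathway components themselves were split, 5 of 15 higher and 3 lower. IKBKB, the kinase IKKβ of the canonical arm, read 6.57, 6.90 and 7.0 in HT29 vehicle against 7.88, 7.87 and 7.63 in control shRNA and 7.85, 7.74 and 7.82 in WiDr vehicle arrays (difference -0.98, adjusted p = 1.03e-06). MAP3K14, the kinase NIK that activates IKKα in the alternative arm, was 0.94 higher in HT29, and MAP3K7, the kinase TAK1, 0.70 lower. CHUK, which encodes IKKα, read 9.42, 9.63 and 9.54 in HT29 vehicle and 9.67, 9.29 and 9.50 in WiDr vehicle arrays, a difference of 0.04 (adjusted p = 0.859), and the regulatory subunit IKBKG differed by -0.05 (adjusted p = 0.742). RELA and NFKB1 gave -0.04 and -0.06 and did not pass. RELA gave 0.43 with multi-transcript probe sets dropped (adjusted p = 0.0128), and NFKB1 was 0.27 lower against control shRNA (adjusted p = 0.000164) and 0.17 lower against the mean of both WiDr groups (adjusted p = 0.00335). The inhibitor and target NFKBIA was 0.57 lower and RELB 0.44 lower. RELB no longer passed without HT29 vehicle replicate 2 (-0.31) or without WiDr vehicle replicate 2 (-0.35).

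Interferon response genes were more often lower in HT29, 16 of 35 lower and 7 higher, with a list median of -0.18. Against control shRNA the count was 26 lower and 2 higher and the median -1.01, and the control shRNA arrays exceeded WiDr vehicle at 28 of the 35 genes (2 lower, median 1.08), where 11.6% of all genes were higher and 10.6% lower in control shRNA. IFI44 read 4.86, 4.84 and 4.71 in HT29 vehicle, 8.98, 9.15 and 8.90 in control shRNA and 7.19, 7.24 and 7.37 in WiDr vehicle arrays. IFI27 read 8.65, 8.41 and 8.46 in HT29 vehicle, 12.30, 12.50 and 12.39 in control shRNA and 9.78, 9.97 and 9.92 in WiDr vehicle arrays. Both genes gave 3 levels with HT29 lowest. DDX60 was 1.99 lower, IFIT1 1.51, IFIT2 1.24 and IFITM1 1.05 lower in HT29 than in WiDr vehicle. IFI35 went the other way, at 8.43, 8.25 and 8.52 in HT29 vehicle, 7.19, 7.26 and 7.23 in control shRNA and 6.80, 6.80 and 6.53 in WiDr vehicle arrays. The RNA sensor IFIH1 and OAS1 were 1.06 and 0.96 higher in HT29 than in WiDr vehicle, while against control shRNA they gave -0.69 and -0.15. Of the 23 antigen presentation genes of the MHC list 10 were higher and 1 lower, led by HLA-F (8.10, 8.27 and 8.17 in HT29 vehicle against 6.57, 6.73 and 6.75 in control shRNA and 6.51, 6.23 and 6.34 in WiDr vehicle arrays), and its 10 probe sets spanned 0.08 to 1.82. Against control shRNA 5 of the 23 were higher and 6 lower, and control shRNA exceeded WiDr vehicle at 12 of them. WiDr vehicle stood apart at 7 of the 23, as it did at 763 of all 18132 genes.

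MAPK output genes gave 9 of 20 lower and 4 higher in HT29, with a median of -0.23. Against control shRNA 8 were lower and 5 higher with a median of -0.08. WiDr vehicle stood apart at 5 of the 20, as it did at 763 of all 18132 genes. FOS was 0.68 lower and EGR1 0.44 higher than in control shRNA (adjusted p = 0.00805 and 0.0505). Against WiDr vehicle the lower ones were led by FOS (2.18 lower), EGR1 (1.78 lower) and DUSP4, a phosphatase of ERK, which read 7.74, 7.85 and 7.71 in HT29 vehicle against 8.91, 9.05 and 9.23 in control shRNA and 9.17, 9.30 and 9.19 in WiDr vehicle arrays. ETV5 was 0.91 higher, and EPHA4 1.06 higher. DUSP6, SPRY4 and ETV4, which are direct readouts of ERK activity, gave 0.11, 0.38 and 0.12 and did not pass. SPRY4 passed when only the 6 vehicle arrays were fitted (adjusted p = 0.00668) or those and control shRNA (adjusted p = 0.00252), and DUSP6 was 0.56 higher against control shRNA (adjusted p = 0.00777). Of the EGF family, the ligand NRG4 was 1.81 higher and the ligand EREG 1.03 lower in HT29.

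Targets of YAP and TEAD, the Hippo pathway effectors, gave 9 of 19 lower and 4 higher, with a median of -0.14 against WiDr vehicle and -0.36 against control shRNA. CCN2, a matricellular growth factor, read 7.20, 7.21 and 7.82 in HT29 vehicle against 9.24, 9.13 and 9.42 in control shRNA and 9.46, 9.31 and 9.58 in WiDr vehicle arrays. The surface nucleotidase NT5E was 1.73 lower, the receptor kinase AXL 1.53 lower and the LIM protein AJUBA 1.49 lower. Retinoid genes gave 8 of 20 lower and 1 higher. CRABP2, which carries retinoic acid to its receptor, read 6.93, 6.70 and 6.89 in HT29 vehicle against 9.01, 9.23 and 9.23 in control shRNA and 9.02, 8.78 and 8.77 in WiDr vehicle arrays. ALDH1A3, which makes retinoic acid, was 1.60 lower, and the retinoid-induced RARRES1 and PLAAT4 1.64 and 1.26 lower. Genes of TGF-β and BMP signalling gave 11 of 32 lower and 5 higher, among them BAMBI and the coreceptor TGFBR3 (2.13 higher), ID2 (1.42 higher), and the ligand BMP2 (1.5 lower), the BMP target ID1 (1.21 lower) and the inhibitor SMAD7 (1.0 lower).

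Differentiation genes were split. Secretory and goblet genes gave 7 of 19 higher and 3 lower, with REG4, the trefoil peptide TFF1 (1.38 higher) and SPINK4 (0.86 higher) leading. Of 22 absorptive enterocyte genes 3 were higher and none lower (limma, 13.6% called, while 32.2% of all genes were). These were the glucose transporter SLC5A1 (2.04), the carbonic anhydrase CA2 (1.88) and the brush border peptidase DPP4 (1.44). FABP1 (4.01 higher) and VIL1 (0.97 higher) were counted among the colon epithelium markers and not here. That marker list gave 3 of 14 higher and 2 lower. Against control shRNA 8 of the 22 enterocyte genes were higher and 0 lower, where 24.4% of all genes were higher and 19.2% lower. The cancer-testis list below gave the same 8 and 0 of 22 there, so the count is not particular to enterocyte genes. KRT20, a keratin of differentiated colon cells, read 11.23, 11.33 and 11.13 in HT29 vehicle against 12.49, 12.46 and 12.59 in control shRNA and 12.28, 12.26 and 12.33 in WiDr vehicle arrays. E-cadherin (CDH1) was 0.57 lower in HT29. Of the Wnt and stem cell genes 7 of 20 were higher and 3 lower, with the stem cell receptor LGR5 1.12 higher, ASCL2 0.76 higher and the secreted Wnt inhibitor DKK1 1.44 lower. Notch genes gave 4 of 16 lower and none higher (limma, 25% called, while 32.2% of all genes were). Among the 4 were the ligands JAG2 (0.68 lower) and JAG1 (0.59 lower) and the target HES4 (0.60 lower).

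HOX genes, which keep the position of a cell along the body axis, gave 6 of 25 higher and 5 lower. HOXD13 read 5.13, 4.95 and 4.83 in HT29 vehicle against 7.12, 7.54 and 7.42 in control shRNA and 7.22, 6.84 and 7.50 in WiDr vehicle arrays. HOXB2 read 7.80, 7.89 and 8.0 in HT29 vehicle against 5.80, 5.89 and 5.76 in control shRNA and 6.13, 6.19 and 6.08 in WiDr vehicle arrays. Of 22 cancer-testis antigen genes 2 were called (9.09%, while 32.2% of all genes were), CSAG1 (1.71 higher) and MAGEA12 (1.17 higher). Ion transport genes of colon gave 8 of 24 higher and 4 lower, with the potassium channel KCNQ1 1.90 higher, the sulfate transporter SLC26A2 1.47 higher and the chloride channel ANO1 1.38 lower, or -0.21 once multi-transcript probe sets were dropped, which did not pass. Of the glycosyltransferases 7 of 25 were higher and 4 lower, led by GCNT1, which branches mucin sugars, at 7.88, 7.90 and 7.91 in HT29 vehicle, 5.08, 5.14 and 4.96 in control shRNA and 4.80, 4.42 and 4.78 in WiDr vehicle arrays.

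Cell surface and junction genes differed in both directions. Of 19 tight junction and adherens genes 5 were higher and 7 lower, with CLDN2 and CLDN18 (2.85) far above the rest, CLDN1 0.77 higher and CLDN4 0.72 lower (0.16 lower against control shRNA, not passed). CEACAM and mucin genes gave 3 of 16 higher, CEACAM6, MUC13 and CEACAM5, and 2 lower, MUC12 (0.95) and CEACAM1 (0.76). Keratins gave 5 of 14 higher and 3 lower. KRT23, a type I keratin, was 1.96 higher and KRT7, a keratin of simple epithelia other than colon, 1.09 higher. Receptor tyrosine kinases and ephrins outside the EGF family gave 7 of 28 higher and 9 lower, with the ligand EFNB2 1.10 lower. Of 16 laminins and integrins 3 were higher and 4 lower, with the collagen receptor subunits ITGA2 0.98 higher and ITGA1 0.72 lower. Mesenchymal and invasion genes gave 6 of 23 higher and 4 lower, with the collagenase MMP1 1.44 higher, the hyaluronan-degrading CEMIP 1.35 higher and tenascin C (TNC) 0.87 lower. The cornified envelope precursor SPRR1B was 2.28 higher, in a squamous and serpin list with 3 of 22 higher and 4 lower.

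As for the lists above, 16.9% of all genes were higher and 15.3% lower. Drug conjugating enzymes gave 9 of 22 higher and 4 lower, with the glutathione transferase GSTA1 2.03 higher (0.14 with multi-transcript probe sets dropped, which did not pass) and the sulfotransferase SULT2B1 1.08 lower. Prostaglandin genes gave 8 of 21 higher and 1 lower, PTGS2, with the secreted phospholipase PLA2G10 1.89 higher and HPGD, which inactivates prostaglandins, 1.31 higher. Among cytochrome P450 and aryl hydrocarbon receptor genes 4 of 21 were higher and 2 lower, with CYP2B6 1.53 higher and CYP24A1, which degrades vitamin D, 1.05 lower. Lysosome and autophagy genes gave 8 of 20 higher and 2 lower, the proteases CTSS (1.63 lower) and CTSB (0.72 lower). The BCL2 family gave 7 of 18 higher and 6 lower, with the death-promoting BBC3 0.80 lower and BIK 0.69 higher. Of the RAS, RAF, MEK and ERK genes 7 of 20 were higher and 4 lower, with RASAL1, which turns RAS off, 1.29 higher.

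The next 5 lists, grouped by direction, held more higher than lower members against WiDr vehicle. Metallothioneins, also defence genes, gave 0 of 10 higher and 2 lower. The NRF2 and oxidative defence list gave 9 of 24 higher and none lower (limma), with AKR1C1 at 11.57, 11.81 and 11.61 in HT29 vehicle against 9.33, 9.50 and 9.56 in control shRNA and 9.71, 9.51 and 9.59 in WiDr vehicle arrays. AKR1C2, a near-identical copy whose probe sets may bind the same transcripts, was 2.0 higher, the aldo-keto reductase AKR1B10 1.32 and the plasma glutathione peroxidase GPX3 1.10 higher. Glycolysis and hypoxia genes gave 11 of 26 higher and 1 lower, with NDRG1 1.15, PDK1 0.85 and HK2 0.64 higher and VEGFA 0.62 lower. With multi-transcript probe sets dropped, NDRG1 and VEGFA gave 0.19 and -0.03 and no longer passed. Oxidative phosphorylation genes gave 10 of 27 higher and 2 lower, and unfolded protein response genes 10 of 18 higher and 3 lower, all within 2-fold. Cholesterol and fatty acid synthesis genes gave 11 of 21 higher and 2 lower with a median of 0.24 against WiDr vehicle. Against control shRNA that list had 7 higher, 8 lower and a median of -0.02, and control shRNA exceeded WiDr vehicle at 12 of its genes.

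The mitosis, DNA replication, ATF4 and p53 lists held more lower than higher members against WiDr vehicle. They are grouped here by direction, and the unfolded protein response list above went the other way. Mitosis genes gave 10 of 28 lower and 3 higher (median -0.14), DNA replication genes 11 of 33 lower and 6 higher (median -0.02), and none of either passed 2-fold. ATF4 targets gave 9 of 22 lower and 2 higher, led by the pseudokinase TRIB3 (1.20 lower) and ATF3 (1.12 lower), while against control shRNA 7 were lower and 7 higher. Targets of p53 gave 9 of 20 lower and 5 higher, led by the kinase PLK2 (1.35 lower). Housekeeping genes gave 4 of 14 higher and 2 lower with a median of -0.0025. SMAD4 differed by 0.01 (adjusted p = 0.965) and APC was 0.36 higher.

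WiDr vehicle stood apart from both HT29 vehicle and WiDr control shRNA at 763 genes (13.1% of those called), 554 at which it was lowest and 209 at which it was highest. FOS, EGR1 and DUSP1 were among those at which it was highest, while ATF3 was 1.12 lower in HT29 than in WiDr vehicle and 1.01 lower than in control shRNA. FOS, a transcription factor subunit induced within minutes of a growth signal, read 8.42, 8.95 and 9.56 in HT29 vehicle, 9.68, 9.55 and 9.75 in control shRNA and 11.12, 11.05 and 11.30 in WiDr vehicle arrays. EGR1, an immediate early zinc finger factor, read 9.18, 9.39 and 9.99 in HT29 vehicle, 9.03, 9.05 and 9.17 in control shRNA and 11.11, 11.33 and 11.45 in WiDr vehicle arrays. All 3 WiDr vehicle arrays were above all 6 others at both genes, and the HT29 arrays spread more widely than those of the other groups. DUSP1, an immediate early phosphatase, read 6.15, 6.30 and 6.73 in HT29 vehicle, 6.52, 6.77 and 6.75 in control shRNA and 7.64, 7.67 and 7.84 in WiDr vehicle arrays. NFKBIZ (1.30 lower in HT29 than in WiDr vehicle), ID1 (1.21 lower), CCN1 (0.99 lower) and the metallothioneins MT1E (0.93 lower) and MT2A (0.87 lower) shared the pattern. CXCL8 met the rule only narrowly, with HT29 1.27 lower than control shRNA and 2.62 lower than WiDr vehicle.

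MUC13, SLC5A1 and LGALS2 were among the genes at which WiDr vehicle was lowest. MUC13, a transmembrane mucin, read 9.63, 9.78 and 9.75 in HT29 vehicle, 8.26, 8.30 and 8.34 in control shRNA and 6.98, 6.80 and 6.79 in WiDr vehicle arrays. SLC5A1 read 7.77, 7.57 and 7.92 in HT29 vehicle, 7.19, 7.30 and 7.38 in control shRNA and 5.63, 5.63 and 5.89 in WiDr vehicle arrays. LGALS2, a galectin, read 6.62, 6.56 and 6.62 in HT29 vehicle, 7.84, 7.99 and 7.86 in control shRNA and 5.13, 4.96 and 4.98 in WiDr vehicle arrays. At LGALS2 the control shRNA arrays were above those of HT29, while at MUC13 and SLC5A1 they lay below. MUC13 met the rule only narrowly, with HT29 1.42 higher than control shRNA and 2.86 higher than WiDr vehicle. The cystine transporter subunit SLC3A1 (1.63 higher in HT29 than in WiDr vehicle), SERPINA5 (1.55), the villus actin bundler VIL1 (0.97) and the potassium channel subunit KCNE3 (1.05) followed. With multi-transcript probe sets dropped, SLC3A1 gave 0.23 and no longer passed. The labels name no vehicle for the control shRNA arrays, so vehicle, transduction and handling cannot be told apart at these genes. Without WiDr vehicle replicate 2 the count was 502.

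**Figure D3:**
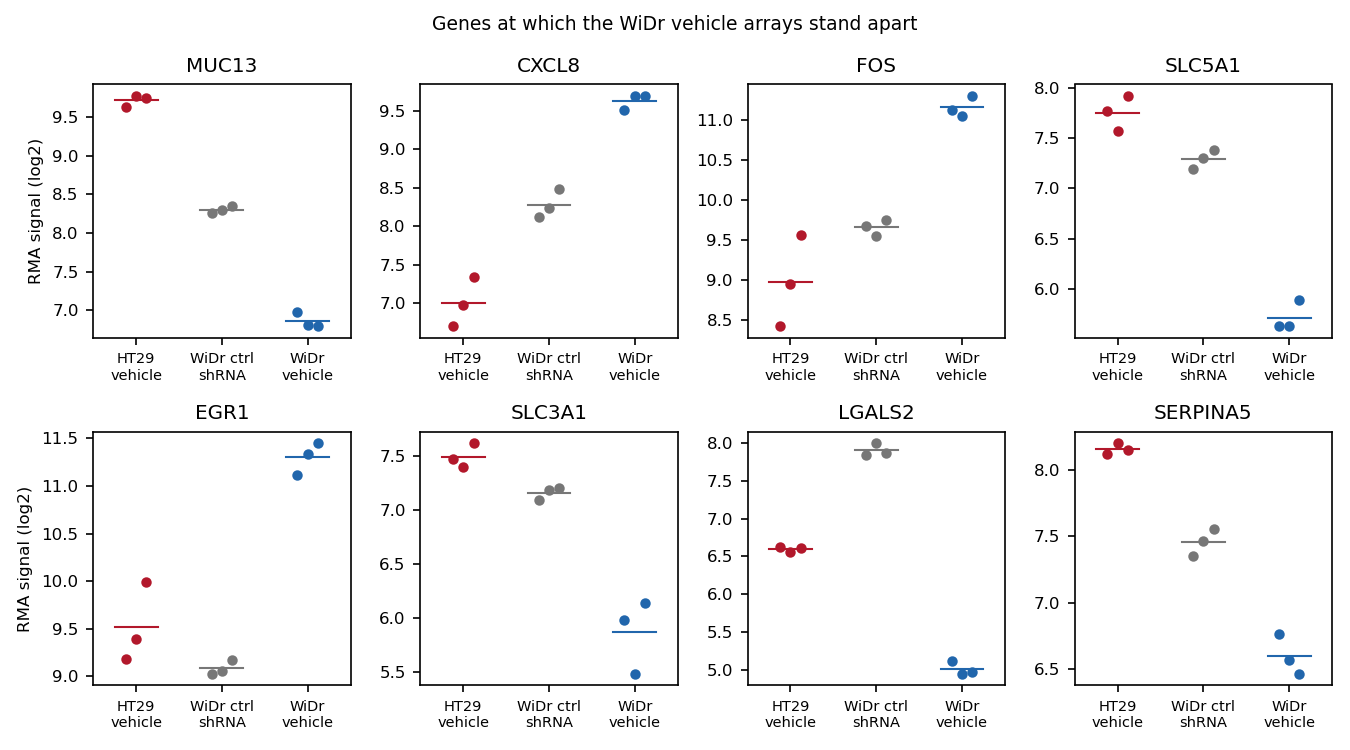
RMA signal (log2, vertical, scale differing by panel) of the 8 genes with the largest differences among those at which WiDr vehicle stands apart, with 1 point per array and a line at each group mean. CXCL8, FOS and EGR1 are highest in WiDr vehicle, and MUC13, SLC5A1, SLC3A1, LGALS2 and SERPINA5 are lowest there.

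The arrays with AZ628 share none of the arrays above and gave the line difference a second time, in treated cells. Of the 488 genes at least 2-fold apart with vehicle, 478 (98%) had the same sign with AZ628, as did 69.7% of all genes. Of the 488, 453 passed the test in the same direction. Over all genes 34.4% passed with AZ628 (17.2% in each direction, with 1.55% at least 2-fold higher in HT29 and 1.56% at least 2-fold lower). The 2 genes that passed in the opposite direction were ANO1, 1.49 higher in HT29 with AZ628 and 1.38 lower with vehicle, and RUNX2, a transcription factor of bone formation, 0.43 higher with AZ628 and 1.40 lower with vehicle. The slope of the AZ628 on the vehicle difference over the 488 genes was 0.857, as a description, with genes sharing the arrays. The line difference itself differed between AZ628 and vehicle at 1667 genes (9.19%). HT29 stood higher relative to WiDr with AZ628 than with vehicle at 736 of them (4.06%), by at least 2-fold at 83 (0.458%), and lower at 931 (5.13%), by at least 2-fold at 92 (0.507%). NNMT differed by 0.02 with AZ628, against 3.75 lower in HT29 with vehicle, and CLDN2 differed by 0.24 with AZ628, against 3.24 higher with vehicle. PPARGC1A gave 0.38 with AZ628 and 2.64 with vehicle, and TGFBR3 gave 0.14 with AZ628 and 2.13 with vehicle.

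**Figure D4:**
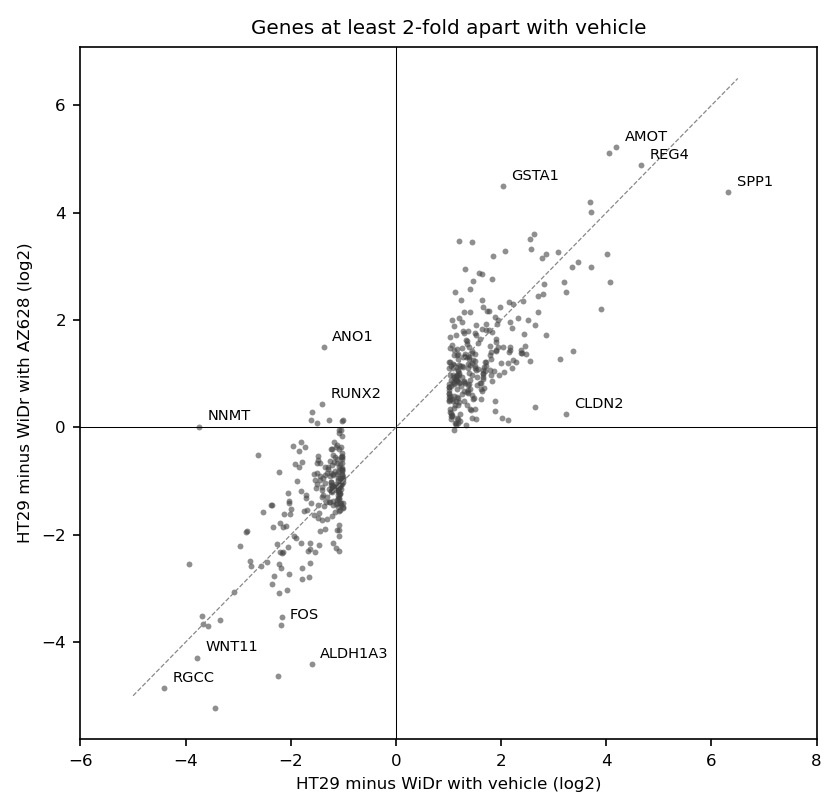
Line difference HT29 minus WiDr (log2) with AZ628 (vertical) and with vehicle (horizontal) for the 488 genes at least 2-fold apart with vehicle, 1 point per gene, with the line of equal differences dashed. Most points lie in the quadrants of equal sign near the dashed line, and NNMT and CLDN2 lie near 0 on the vertical axis.

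Across all 18 arrays, 670 genes (3.7%) had every one of the 6 HT29 arrays above every one of the 12 WiDr arrays and 702 (3.87%) had every one below, 7.57% of genes in all, whatever the treatment or shRNA. The widest gaps between the lowest array of 1 line and the highest of the other were at WNT11 (-3.43), AMOT (3.27), CYBRD1 (-3.20), RGCC (-3.16), SOSTDC1 (-2.97), SLCO1B3 (-2.82), PLIN2 (-2.69), CNTNAP2 (2.65), the tetraspanin TSPAN7 (2.5) and EIF4E3 (2.49), negative where HT29 was lower.

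Replication-type histone genes were picked out after their values were seen. Of 60 measured by symbol, 53 of them on chromosome 6, 19 were higher in HT29 and 2 lower, and 10 were at least 2-fold higher. Over all genes 16.9% were higher, 15.3% lower and 1.46% at least 2-fold higher. Of the 53 on chromosome 6, 17 were higher. On that chromosome as a whole 18.1% of genes were higher. It also holds a block, given below, from DUSP22 to VN1R10P, with 85 of 170 genes (50%) higher in HT29. How many of the histone genes lie within this block was not counted, so their count is not shown to be particular to histones. The part of the block here was not tested. H2BC12 read 11.42, 11.66 and 11.49 in HT29 vehicle against 9.14, 9.18 and 9.10 in control shRNA and 9.0, 8.77 and 8.90 in WiDr vehicle arrays. H2BC5 read 8.98, 9.02 and 9.02 in HT29 vehicle against 6.57, 6.58 and 6.75 in control shRNA and 6.57, 6.5 and 6.65 in WiDr vehicle arrays. H2AC6 was 2.21, H2BC11 1.97 and the linker histone H1-2 1.90 higher, while H2BC9 and H2AC20 were 0.88 and 0.71 lower. With AZ628, 29 of the 60 were higher in HT29, where 17.2% of all genes were. These genes are near-identical copies, so their probe sets can share transcripts.

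Small differences clustered along chromosomes. On chromosome 8, 277 of 628 genes were lower in HT29 (44.1%) and 26 higher (4.14%), with a median of -0.17. On chromosome 17, 429 of 1057 were higher (40.6%) and 35 lower (3.31%), with a median of 0.12. Over all genes the shares were 16.9% higher and 15.3% lower. Chromosomes 14 (34.4% lower), 7 (30% lower), 4 (28.9% lower) and 20 (27.8% lower) had more genes lower in HT29, and chromosomes 2 (29.5% higher) and 3 (24% higher) more genes higher.

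Within chromosomes the shifts ran in blocks. In windows of 40 neighbouring genes, placed by the gene order of GRCh38.p14, the medians of 442 windows without overlap ran from -0.43 to 0.39, and 46 were beyond 0.2 in either direction. All 46 had the same sign with AZ628, as did 81.2% of the 442, and over the 442 windows the medians with AZ628 and with vehicle correlated at 0.919, as a description. Joining overlapping windows beyond 0.2 gave 31 blocks, 17 higher in HT29 and 14 lower, with 2820 genes (15.6% of those placed). They held 25.4% of the called genes and 22.5% of those at 2-fold. The same differences chose the blocks, so these shares and the counts within blocks given next are a description only. Chromosome 6 was split. A block of 170 genes from DUSP22 to VN1R10P was higher in HT29 (median 0.27), and a block of 150 genes from CGAS on was lower (median -0.25). On chromosome 1 a block of 170 genes from HSD11B1 to KMO had 98 higher and 2 lower (median 0.27), and on chromosome 3 a block of 90 genes from EIF5A2 to TPRG1 had 45 higher and none lower in limma (median 0.26). On chromosome 2 a block of 260 genes from NT5C1B to GMCL1 had 128 higher and 9 lower (median 0.23). On chromosome 14 a block of 250 genes from TMX1 to DDX24 had 135 lower and 6 higher (median -0.26), on chromosome 8 a block of 180 genes from PCM1 to OPRK1 had 96 lower and 3 higher (median -0.28), and on chromosome 9 a block of 50 genes from IFNA8 to ENHO had 27 lower and 4 higher (median -0.33). IKBKB lies in the chromosome 8 block. As background, the RNA of neighbouring genes follows the number of copies of their stretch of DNA. DNA copy number was not analysed here, and its part in these blocks was not tested.

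**Figure D5:**
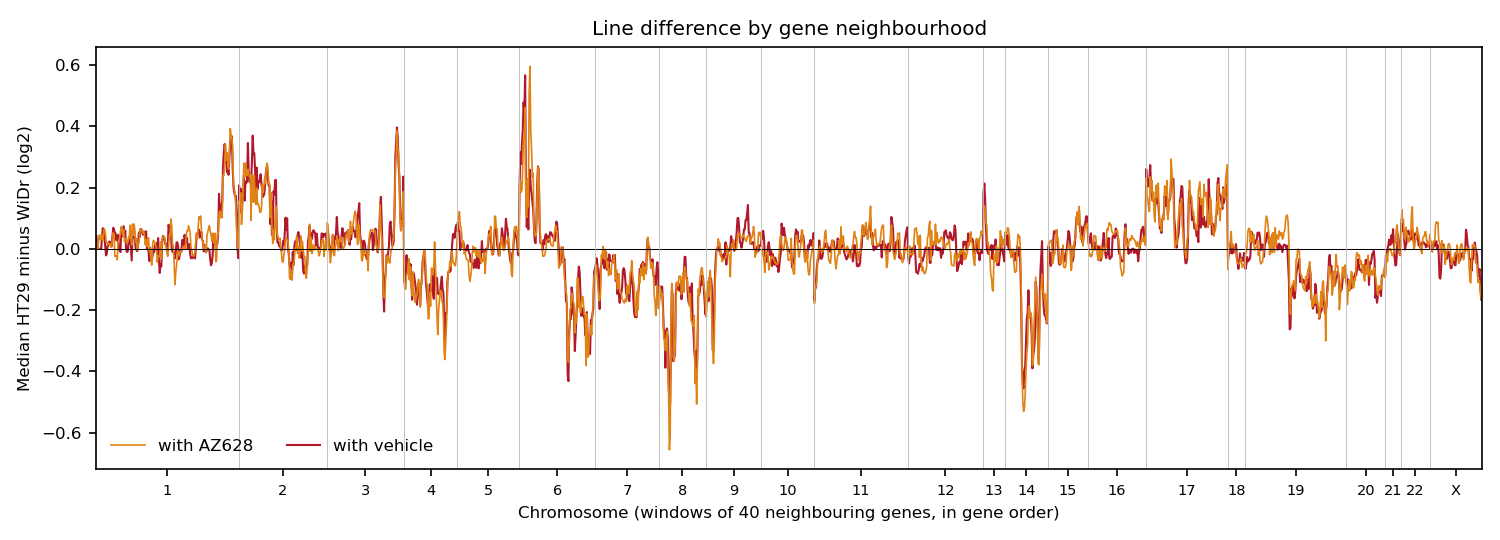
Median line difference HT29 minus WiDr (log2, vertical) in windows of 40 neighbouring genes, stepped by 10 genes and ordered along chromosomes 1 to 22 and X (horizontal), with AZ628 (orange) and with vehicle (red). The lines run together, above 0 over much of chromosomes 2 and 17 and below 0 over much of chromosomes 8 and 14.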

How the data were processed

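RNA (100 ng a sample) was hybridised to 1-colour expression arrays, 3 for each of 6 groups of established cell lines. The deposited table holds log2 values per probe set that the authors made with RMA, per the labels; limma and R 3.0.2 stand beside it in the submitters' processing notes. Intensities before normalization were not used here. Of 49395 probe sets, 102 are controls and 44994 name 1 gene symbol, and each of 18132 genes was read from whichever of its probe sets was brightest on average. Depth does not apply to arrays, and their number limits the precision.

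All 18 arrays entered 1 limma fit (R 4.3.3, limma 3.58.1, lmFit and eBayes, 12 residual degrees of freedom) with a mean per group, Benjamini-Hochberg adjustment over all genes and a threshold of 0.05. Exact permutation of 3 against 3 arrays could not go below 0.1. The fit was tested on simulated data. Replicate numbers are shared between groups, but deviations of same-numbered HT29 and WiDr vehicle arrays correlated at -0.23, -0.20 and 0.05, so they were not taken as pairs.

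Gene lists (49, with 994 of 1126 entries measured) were written from textbook knowledge, and members, lists and thresholds were chosen with earlier results of these data known. Named genes are the 14 largest differences in each direction with separate arrays and the same sign against control shRNA, the 8 largest at which WiDr vehicle stands apart, the 10 widest gaps over 18 arrays, genes low in 1 line and high in the other, up to 5 called and 2 other members of a list, NF-κB pathway genes, SMAD4 and APC; provisional loci were passed over. Neighbouring genes (18081 placed) and promoters came from RefSeq on GRCh38.p14. Alternatives covered the arrays fitted, probe set choice, normalization, a filter on dim genes, the eBayes prior, the replicate block and each array left out. Figures were drawn with matplotlib 3.10.9.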

Additional observations from a re-analysis of the deposited data

Results flagged for a closer look

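Groups of 3 arrays were not tested for outlying samples. The difference between the lines changed with treatment by at least 2-fold at 39 of the 164 genes named. This change was tested as the interaction of line and treatment (limma, Benjamini-Hochberg over all genes). Of all 18132 genes 175 passed at 2-fold, 0.458% with a positive and 0.507% with a negative value. Many named genes were chosen for large differences with vehicle, so the 2 counts are not drawn alike. Values here are the line difference with AZ628 minus that with vehicle, on the log2 scale, and the vehicle arrays are those that chose many of these genes.

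At some of these genes the line difference came near 0 or changed sign with AZ628. NNMT gave 3.76 (adjusted p = 8.49e-09), with HT29 0.02 higher than WiDr with AZ628 and 3.75 lower with vehicle. CLDN2 gave -2.99 (adjusted p = 3.4e-05), with HT29 0.24 higher with AZ628 and 3.24 higher with vehicle. ANO1 gave 2.87 (adjusted p = 7.77e-11), RUNX2 1.84, H2BC9 1.95 and CEACAM1 1.56, and all 4 were higher in HT29 with AZ628 and lower with vehicle.

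A set of 4 NF-κB target genes differed less between the lines with AZ628. The interaction was 2.12 at CXCL8, 1.89 at PTGS2, 1.60 at CXCL1 and 1.10 at CXCL6. It was 1.37 at NT5E, 1.38 at HOXD13, 1.40 at GASK1B and 1.01 at CYP24A1. Among genes higher in HT29 with vehicle it was -2.26 at PPARGC1A, -1.99 at TGFBR3, -1.94 at SPP1, -1.94 at SOX8, -1.70 at BAMBI, -1.39 at CA2, -1.37 at DACH1, -1.14 at GPX3, -1.59 at PLA2G10, -1.27 at MMP1, -1.13 at MUC13, -1.07 at SPRR1B, -1.07 at NDRG1 and -1.03 at AKR1C1.

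Other genes lay further apart with AZ628. The interaction was -2.80 at ALDH1A3, -2.39 at LOXL4, -1.78 at CYBRD1, -1.50 at FOS and -1.05 at EGR1, which were lower in HT29 under both treatments. It was 2.46 at GSTA1, 1.64 at AKR1B10, 1.41 at LGR5, 1.30 at LGALS2, 1.05 at CTSE and 1.03 at AMOT, which were higher in HT29 under both.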

How the results depend on the processing

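The run without multi-transcript probe sets held 152 of the 164 named genes, and that without dim genes held 160. Of the 155 named genes that passed, 150 kept their direction under every alternative that held them, and 15 did not pass under at least 1. Those that turned were EGR1, IFIH1, LGALS2 and OAS1 against WiDr control shRNA alone (0.44, -0.69, -1.30 and -0.15) and TNFAIP2 without probe sets that bind several transcripts (0.041). RELA, which had not passed, passed at 0.43 under that last alternative. Counted per probe set instead of per gene, 13057 passed, 6955 higher and 6102 lower in HT29, with 591 and 446 of them at 2-fold, 1645 with WiDr vehicle apart and 9753 shared by both WiDr groups, since more entries were tested. The genes at least 2-fold lower numbered 376 against control shRNA alone and 147 with the mean of all probe sets of a gene (224 as reported). Those low in 1 line and high in the other numbered 55 with the limits 6 and 7. Leaving out 1 array gave 5136 to 5500 called genes (5837 with all), 257 to 274 at least 2-fold higher and 219 to 237 lower, and 502 to 799 genes with WiDr vehicle apart, the lowest without WiDr vehicle replicate 2. With the replicate block 5724 genes passed (no named gene changed its call), and the numbers were not taken to pair the arrays. Re-centring each array on its median gave 2786 higher and 2924 lower genes. Of the 72 medians of lists and chromosomes, 61 moved by more than the spread between arrays against control shRNA alone. Against the mean of both WiDr groups 45 did, and under any other alternative at most 20. Medians of at least 0.1 in size kept their sign except 4 against control shRNA alone. Many list and chromosome medians thus depend in size on the WiDr group used, and the cause was not tested. Dim signals, as in genes under 5, limit fold changes.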
